A study of Rattus norvegicus with 24 samples.

Results

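The genes of 7 leukocyte adhesion molecules were examined in rat lung. They were chosen by gene symbol from the platform annotation, and all 7 (Sele, Selp, Selplg, Vcam1, Icam1, Icam2 and Pecam1) were present, each as 1 of the 19239 features measured. The lungs came from 24 adult male Wistar rats, each on 1 Affymetrix array, and 4 groups held 6 rats apiece. BD HVT/LPEEP rats had massive brain damage (BD) from a balloon inflated in the epidural space, and were ventilated at a high tidal volume of 12 mL/kg with low PEEP (named HT in the sample labels). BD LVT/OLPEEP rats had the same brain damage and a tidal volume of 6 mL/kg with PEEP set where the respiratory system was least stiff (best PEEP in the labels). NBD HVT/LPEEP and NBD LVT/OLPEEP rats had no brain damage (NBD), and the same 2 settings. All rats were anaesthetised with ketamine and xylazine, tracheotomised and ventilated for up to 6 h. LVT/OLPEEP rats also had recruitment maneuvers (a held airway pressure) and a higher respiratory rate than HVT/LPEEP rats. NBD rats had no trepanation, so the opening of the skull and the brain damage cannot be told apart. Neither can tidal volume, PEEP, respiratory rate and recruitment. Of the 6 BD HVT/LPEEP rats, 2 were non-survivors, which the labels do not identify.

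Leukocytes leave the blood in steps. E-selectin (Sele) and P-selectin (Selp) on activated endothelium catch passing leukocytes and let them roll, mostly by binding PSGL-1, the product of Selplg, which leukocytes themselves carry. ICAM-1 (Icam1) and VCAM-1 (Vcam1) then hold the cell through its integrins, and PECAM-1 (Pecam1) and ICAM-2 (Icam2), which resting endothelium already carries at its junctions, take part in its passage through the vessel wall. Tumour necrosis factor and interleukin 1 induce Sele, Vcam1 and Icam1 through the transcription factor NF-kappaB. Several of these genes are not endothelial alone. Platelets also carry P-selectin and PECAM-1, leukocytes carry PECAM-1 and ICAM-2, and alveolar type I cells carry ICAM-1.

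Values are on the log2 scale as deposited, so that a difference of 1 is a doubling. They ran from 5.73 to 14.53 over all features, with a median of 9.18. Each feature was fitted with limma as 4 group means with 1 spread shared by all groups, and a gene was called at an adjusted p under 0.05 over all 19239 features. The rats were separate animals, and their number limits the precision. Genes of lung epithelium and endothelium were high in every rat. Sftpc, the gene of surfactant protein C, lay between 14.24 and 14.41, and Cdh5, which encodes the junction protein of endothelial cells, between 12.59 and 13.35. In whole lung, fewer cells of a type and less RNA per cell cannot be told apart. In 2 rats the array correlated least with the others of its group, at a mean r of 0.951 in NBD HVT/LPEEP replicate 12 and 0.955 in BD LVT/OLPEEP replicate 16, against 0.969 to 0.988 in the rest. In BD LVT/OLPEEP replicate 16, skeletal muscle markers lay 3.28 above their mean over all rats.

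Under HVT/LPEEP, rats with brain damage had more of both endothelial selectins and of Vcam1 than rats without, and less Icam2. The other 3 genes did not pass. In BD HVT/LPEEP compared to NBD HVT/LPEEP, 3 of the 7 genes were called higher, where 5.9% of all features were, and 1 was called lower, where 8.5% of all features were. Sele had a lowest, median and highest log2 value of 9.93, 10.50 and 10.68 in BD HVT/LPEEP, against 8.38, 8.92 and 9.37 in NBD HVT/LPEEP. The groups did not overlap. The difference was 1.56 (SE 0.37, limma adjusted p = 0.00633), or 2.95-fold. Selp spread more widely among NBD rats. Its lowest, median and highest values were 11.45, 11.98 and 12.41 in BD HVT/LPEEP, against 9.18, 10.03 and 11.59 in NBD HVT/LPEEP, and 5 of the 6 BD rats lay above every NBD rat. The difference was 1.66 (SE 0.48, limma adjusted p = 0.0237), or 3.17-fold. This call is a narrow one, since it was lost without BD HVT/LPEEP replicate 11 or without replicate 19, 33 or 34 of NBD HVT/LPEEP, where the adjusted p was 0.0511 to 0.0597.

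**Figure D1:**
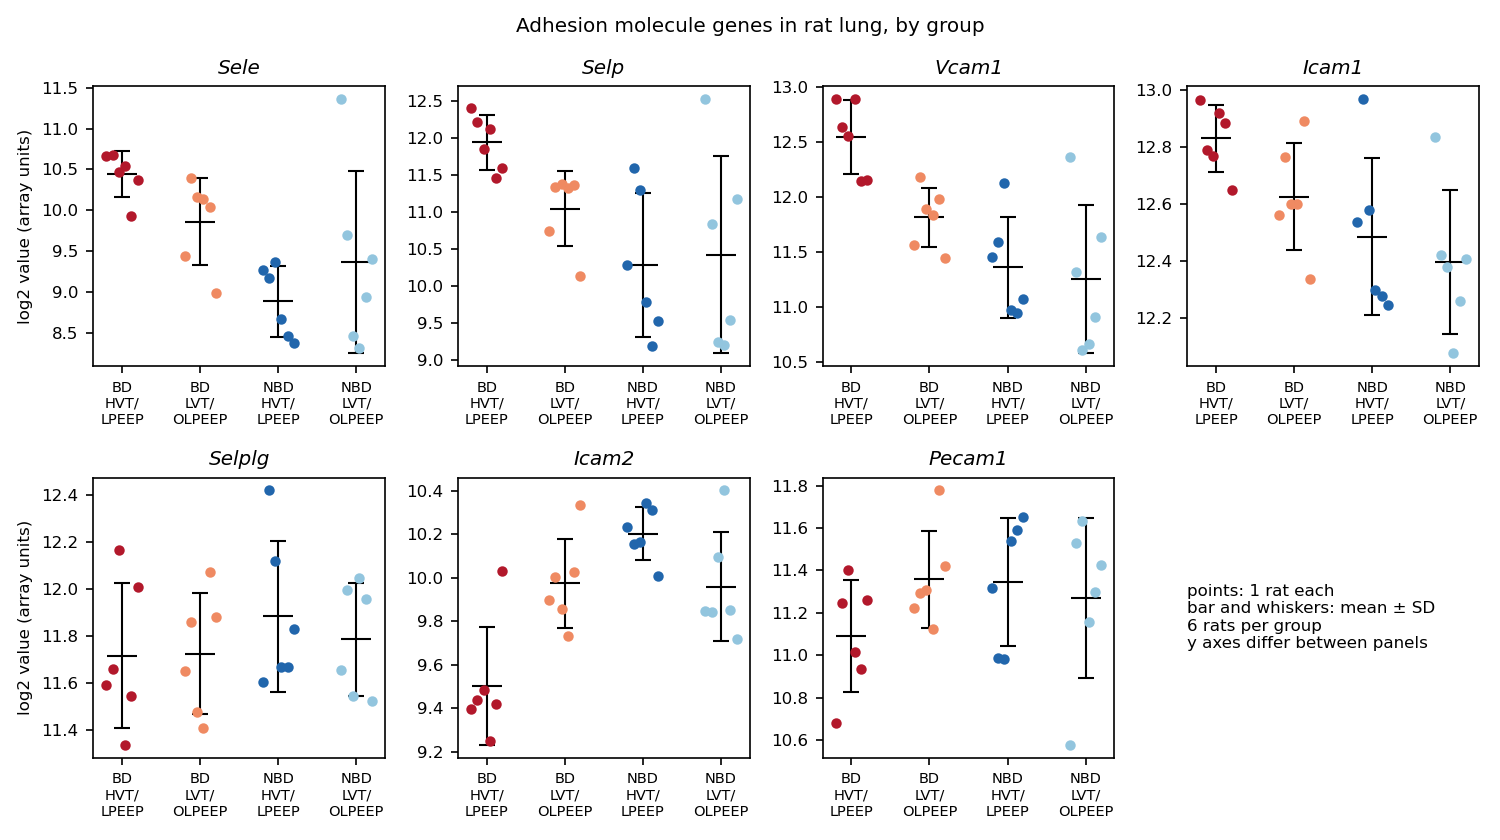
Log2 values (y axis, array units, a separate range in each panel) of the 7 genes in the 4 groups (x axis). Points are rats, bars are means and whiskers SD (n = 6). The 6 BD HVT/LPEEP rats lie above all 6 NBD HVT/LPEEP rats for Sele and Vcam1, 1 NBD LVT/OLPEEP rat is high for both selectins, and 5 of 6 BD HVT/LPEEP rats are low for Icam2.

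Vcam1, which binds the integrin VLA-4 of monocytes and lymphocytes, gave the firmest rise under HVT/LPEEP. Its lowest, median and highest values were 12.14, 12.60 and 12.90 in BD HVT/LPEEP, against 10.94, 11.26 and 12.12 in NBD HVT/LPEEP. Every BD rat lay above every NBD rat, though the lowest and the highest of the 2 groups nearly met. The difference was 1.19 (SE 0.25, limma adjusted p = 0.003), or 2.28-fold, and it passed without any single rat. Sele and Vcam1 were thus 2 of 7 genes whose groups did not overlap upwards, as 1.85% of all features did. Icam1, which binds the integrins LFA-1 and Mac-1, had 12.65, 12.84 and 12.97 in BD HVT/LPEEP, against 12.25, 12.42 and 12.97 in NBD HVT/LPEEP. In NBD replicate 12, Icam1 lay at the top of the BD range. The difference of 0.35 (95% confidence interval 0.10 to 0.60) missed the threshold (limma adjusted p = 0.0581), and it passed without that rat (0.44, adjusted p = 0.00804), with replicate 5 of NBD LVT/OLPEEP left out (adjusted p = 0.0351) or without BD HVT/LPEEP replicate 37 (adjusted p = 0.047).

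The 2 junctional genes did not rise. Icam2 had a lowest, median and highest value of 9.25, 9.43 and 10.03 in BD HVT/LPEEP, against 10.01, 10.20 and 10.34 in NBD HVT/LPEEP. Of the 6 BD rats, 5 lay below every NBD rat, and replicate 37 lay just inside their range. The difference was -0.70 (SE 0.12, limma adjusted p = 0.00057), so that Icam2 was 1.62-fold lower in BD, and it passed without any single rat. Any 2 of the 6 BD HVT/LPEEP rats could be the non-survivors, and all 15 ways of leaving out 2 of them were fitted. Sele, Vcam1 and Icam2 passed in all 15, and Selp failed in at least 1 (highest adjusted p = 0.112). Pecam1 had 10.68, 11.13 and 11.40 in BD HVT/LPEEP, against 10.98, 11.43 and 11.65 in NBD HVT/LPEEP. These ranges overlapped, and the difference of -0.25 did not pass (95% confidence interval -0.59 to 0.09, limma adjusted p = 0.34). Selplg, the leukocyte gene of the list, had 11.34, 11.63 and 12.16 in BD HVT/LPEEP, against 11.60, 11.75 and 12.42 in NBD HVT/LPEEP, a difference of -0.17 (95% confidence interval -0.49 to 0.16, limma adjusted p = 0.541).

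**Figure D2:**
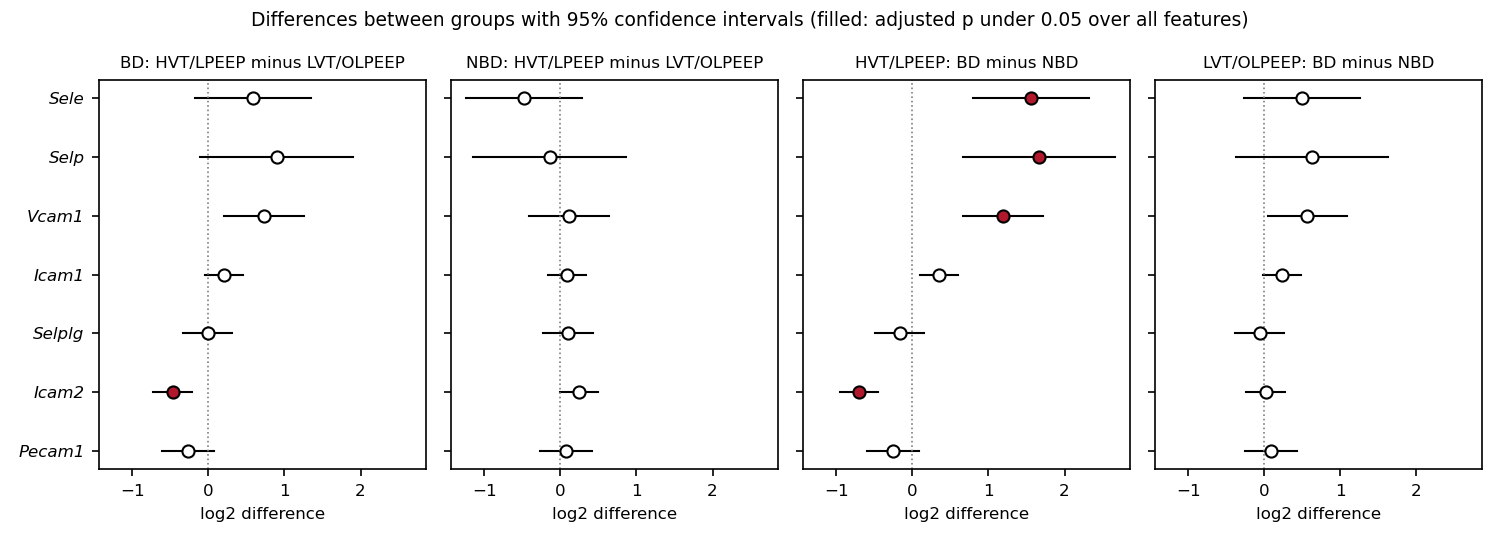
Log2 differences (x axis) of the 7 genes (y axis) in 4 comparisons, with 95% confidence intervals from the limma fit. Filled points passed over all features, which were Sele, Selp, Vcam1 and Icam2 for BD minus NBD under HVT/LPEEP, and Icam2 for HVT/LPEEP minus LVT/OLPEEP in BD.

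Under LVT/OLPEEP, no adhesion molecule gene was called between BD and NBD, where 0.738% of all features were. The mean differences of the 4 inducible genes were all above 0. Vcam1 had a lowest, median and highest value of 11.45, 11.86 and 12.18 in BD LVT/OLPEEP, against 10.61, 11.11 and 12.36 in NBD LVT/OLPEEP, a difference of 0.57 (95% confidence interval 0.04 to 1.09, limma adjusted p = 0.383). Sele differed by 0.50 (95% confidence interval -0.26 to 1.26), Selp by 0.63 (-0.38 to 1.63) and Icam1 by 0.23 (-0.02 to 0.48). These intervals leave room for a doubling of both selectins and of Vcam1. Icam2 differed by 0.02 (-0.24 to 0.27), Pecam1 by 0.09 (-0.25 to 0.43) and Selplg by -0.06 (-0.39 to 0.26). Part of the width came from 1 rat. NBD LVT/OLPEEP replicate 5 had the highest Sele (11.37) and Selp (12.53) and the lowest Pecam1 (10.58) of all 24 rats, with Vcam1 at 12.36 and Icam1 at 12.84. The other 5 rats of its group had Sele between 8.31 and 9.70, Selp between 9.20 and 11.18 and Vcam1 between 10.61 and 11.64. Its array had the lowest mean r of its group (0.981, against 0.984 to 0.988 in the other 5). Without it, the differences under LVT/OLPEEP were 0.90 for Sele, 1.05 for Selp and 0.79 for Vcam1, and none passed (limma adjusted p = 0.129, 0.305 and 0.0944).

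Between the ventilation settings in BD, 1 of the 7 genes passed, Icam2. Of the 7, 1 was called lower under HVT/LPEEP and 0 higher, where 2.82% of all features were called lower and 2.85% higher. Icam2 had the BD HVT/LPEEP values given above, against a lowest, median and highest of 9.73, 9.95 and 10.33 in BD LVT/OLPEEP. All BD HVT/LPEEP rats but replicate 37 lay below every BD LVT/OLPEEP rat. The difference was -0.47 (SE 0.12, limma adjusted p = 0.0252). It was lost without BD HVT/LPEEP replicate 11, 22, 26 or 28 or BD LVT/OLPEEP replicate 18 or 20 (adjusted p = 0.0517 to 0.0704), and in the fit of these 12 rats alone (adjusted p = 0.0563).

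Selp was a case where the BD groups stood apart and the test did not pass. All 6 BD HVT/LPEEP rats (11.45 to 12.41) lay above all 6 BD LVT/OLPEEP rats (10.13 to 11.38), as for 1.41% of all features. The difference was 0.90 (95% confidence interval -0.11 to 1.90, limma adjusted p = 0.298). The SD of Selp was 0.37 under HVT/LPEEP and 0.51 under LVT/OLPEEP in BD, but 0.98 and 1.33 under the same settings in NBD, and the fit shared 1 spread among the 4 groups. In a fit of only the 12 BD rats the SE fell to 0.24 from 0.48 and Selp passed (adjusted p = 0.0489). Vcam1 behaved alike. Its difference of 0.73 (SE 0.25) did not pass over all groups (limma adjusted p = 0.0896) and passed over the 12 BD rats (SE 0.16, adjusted p = 0.0266) and without NBD LVT/OLPEEP replicate 5 (adjusted p = 0.0398). Of the 6 BD HVT/LPEEP rats, 4 had more Vcam1 than every BD LVT/OLPEEP rat.

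Sele and Icam1 differed less in BD. Sele in BD LVT/OLPEEP had a lowest, median and highest value of 8.99, 10.09 and 10.39, and 4 of 6 BD HVT/LPEEP rats lay above it, a difference of 0.58 (95% confidence interval -0.18 to 1.34, limma adjusted p = 0.384). Icam1 differed by 0.20 (-0.05 to 0.45, adjusted p = 0.349). With animal number as a covariate the differences in BD were larger and passed for 5 genes, with 1.08 for Sele (adjusted p = 0.0302), 1.56 for Selp (0.0177), 1.05 for Vcam1 (0.00524), 0.36 for Icam1 (0.0286) and -0.55 for Icam2 (0.0108). In that fit 11% of all features passed, against 5.67% without the covariate. The labels do not say what the animal number stands for. In BD it ran from 7 to 20 under LVT/OLPEEP and, apart from number 11, from 22 to 37 under HVT/LPEEP. Number and ventilation can thus hardly be separated in BD, and these larger differences depend on the slope fitted for the number.

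In NBD, none of the 7 genes was called between HVT/LPEEP and LVT/OLPEEP, and of all 19239 features 0% were, although 3127 had an unadjusted p under 0.05. The intervals were widest for the selectins, followed by Vcam1. HVT/LPEEP minus LVT/OLPEEP was -0.48 for Sele (95% confidence interval -1.24 to 0.28), -0.14 for Selp (-1.14 to 0.86) and 0.11 for Vcam1 (-0.42 to 0.63). It was 0.09 for Icam1 (-0.16 to 0.34), 0.24 for Icam2 (-0.01 to 0.50), 0.07 for Pecam1 (-0.27 to 0.41) and 0.10 for Selplg (-0.23 to 0.42). Without NBD LVT/OLPEEP replicate 5 the Sele difference was -0.08 and that of Selp 0.28.

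Whether the ventilation effect differed between BD and NBD was tested as the difference of the 2 effects. None of the 7 genes passed, and 0.0104% of all features did. Icam2 came nearest, at -0.71 (SE 0.17, limma adjusted p = 0.103), since HVT/LPEEP rats were lower than LVT/OLPEEP rats in BD and had a mean 0.24 above them in NBD. Without BD HVT/LPEEP replicate 37, the BD rat with the highest Icam2 of its group, the difference was -0.82 and passed (adjusted p = 0.0183). The values for Sele, Selp and Vcam1 were 1.06 (95% confidence interval -0.01 to 2.14), 1.04 (-0.38 to 2.45) and 0.62 (-0.12 to 1.36).

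With brain damage and HVT/LPEEP together, compared to neither, 5 of the 7 genes were called, where 19% of all features were. These were 4 of 7 called higher, beside 9.03% of all features, and 1 of 7 called lower, beside 10%. Relative to NBD LVT/OLPEEP, BD HVT/LPEEP was higher in Sele by 1.08 (SE 0.37, limma adjusted p = 0.0415), in Selp by 1.52 (SE 0.48, adjusted p = 0.0298), in Vcam1 by 1.30 (SE 0.25, adjusted p = 0.00109) and in Icam1 by 0.43 (SE 0.12, adjusted p = 0.0141). Icam2 differed by -0.46 (SE 0.12, adjusted p = 0.011). Pecam1 (-0.18) and Selplg (-0.07) did not pass. The lowest, median and highest values in NBD LVT/OLPEEP were 8.31, 9.17 and 11.37 for Sele, 9.20, 10.18 and 12.53 for Selp, 12.08, 12.39 and 12.84 for Icam1 and 9.72, 9.85 and 10.40 for Icam2. Against these the groups overlapped, for both selectins through replicate 5. Without that rat the differences were 1.48 for Sele (limma adjusted p = 0.000554) and 1.95 for Selp (adjusted p = 0.00238). Only for Vcam1, Icam1 and Icam2 did this call hold without every single rat. Sele was lost in the fit of these 12 rats alone (adjusted p = 0.0825) and without moderation of the spread (adjusted p = 0.0574). It was also lost without BD HVT/LPEEP replicate 11, 22, 24, 26 or 37 or NBD LVT/OLPEEP replicate 23, 27, 29 or 30 (adjusted p = 0.0569 to 0.116), and Selp without BD HVT/LPEEP replicate 11, 22 or 26 or NBD LVT/OLPEEP replicate 23, 27 or 29 (adjusted p = 0.0503 to 0.0846). Without 2 of the BD HVT/LPEEP rats, Sele passed in none of the 15 fits (adjusted p = 0.0522 to 0.147), Vcam1 passed in all, and Selp, Icam1 and Icam2 failed in at least 1 (highest adjusted p = 0.123, 0.0673 and 0.0743).

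Among the inducible genes, the order of the group means followed 2 shapes. Vcam1 and Icam1 ran from BD HVT/LPEEP (12.55 ± 0.34 and 12.83 ± 0.12, SD, n = 6) through BD LVT/OLPEEP (11.81 ± 0.27 and 12.63 ± 0.19) and NBD HVT/LPEEP (11.36 ± 0.46 and 12.48 ± 0.28) to NBD LVT/OLPEEP (11.25 ± 0.67 and 12.40 ± 0.25). The selectins had the same first and second place, with BD HVT/LPEEP at 10.44 ± 0.28 for Sele and 11.94 ± 0.37 for Selp and BD LVT/OLPEEP at 9.86 ± 0.53 and 11.04 ± 0.51. NBD LVT/OLPEEP came next (9.36 ± 1.12 and 10.42 ± 1.33) and NBD HVT/LPEEP last (8.88 ± 0.44 and 10.28 ± 0.98). Without replicate 5 the NBD LVT/OLPEEP mean of Selp was 9.99, below that of NBD HVT/LPEEP, so Selp then took the order of Vcam1 and Icam1, while Sele (8.96) kept its order. No 2 neighbours in these 4 orders passed limma's test. Icam2 was highest in NBD HVT/LPEEP (10.20 ± 0.12), followed by BD LVT/OLPEEP (9.97 ± 0.21), NBD LVT/OLPEEP (9.96 ± 0.25) and BD HVT/LPEEP (9.50 ± 0.27), and of these neighbours only the last pair differed. For Pecam1 and Selplg the 4 means spanned less than the SD of the most variable group. In BD, Pecam1 averaged 11.09 ± 0.26 under HVT/LPEEP and 11.36 ± 0.23 under LVT/OLPEEP, and in NBD 11.34 ± 0.30 under HVT/LPEEP and 11.27 ± 0.38 under LVT/OLPEEP. Selplg averaged 11.72 ± 0.31, 11.73 ± 0.26, 11.88 ± 0.32 and 11.79 ± 0.24 in these 4 groups. Neither gene was called in any comparison. BD LVT/OLPEEP against NBD HVT/LPEEP gave no call for any of the 7 genes, where 1.19% of all features were called.

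Within groups, the 4 inducible genes went up and down together from rat to rat. After each group mean was subtracted, 21 pairs of the 7 genes were correlated over 24 rats, with a permutation test that shuffled rats within groups (100000 resamples, two-sided). Selp and Vcam1 had a Pearson r of 0.929 (permutation p = 1e-05, adjusted p = 0.000105) and a Spearman coefficient of 0.898 (permutation p = 1e-05), the smallest p that this number of resamples can give. Sele and Selp had an r of 0.905 and a Spearman coefficient of 0.861, and Sele and Vcam1 an r of 0.895 and a Spearman coefficient of 0.833. Icam1 had an r of 0.836 with Selp, 0.745 with Vcam1 and 0.739 with Sele (Spearman coefficients 0.793, 0.754 and 0.707). All 6 pairs among these genes passed by r and by the Spearman coefficient, with a largest adjusted permutation p of 0.00133 for r and 0.00227 for the Spearman coefficient. Without the 2 rats farthest from the median of the first gene of a pair, r was 0.59 to 0.886, and without NBD LVT/OLPEEP replicate 5 it was 0.635 to 0.891. In single groups of 6 rats, r among Sele, Selp and Vcam1 was 0.789 to 0.992. Icam1 was looser in BD HVT/LPEEP, with an r of 0.078 with Sele, where its values spanned little (SD 0.12). Group was removed from all 21 pairs, but animal number was not. In NBD HVT/LPEEP, replicates 10, 12 and 13 lay above replicates 19, 33 and 34 for each of the 4 genes. In BD LVT/OLPEEP, the lowest Sele belonged to replicates 20 (8.99) and 7 (9.44), the ends of its numbers. The part of animal number in these correlations was not tested.

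**Figure D3:**
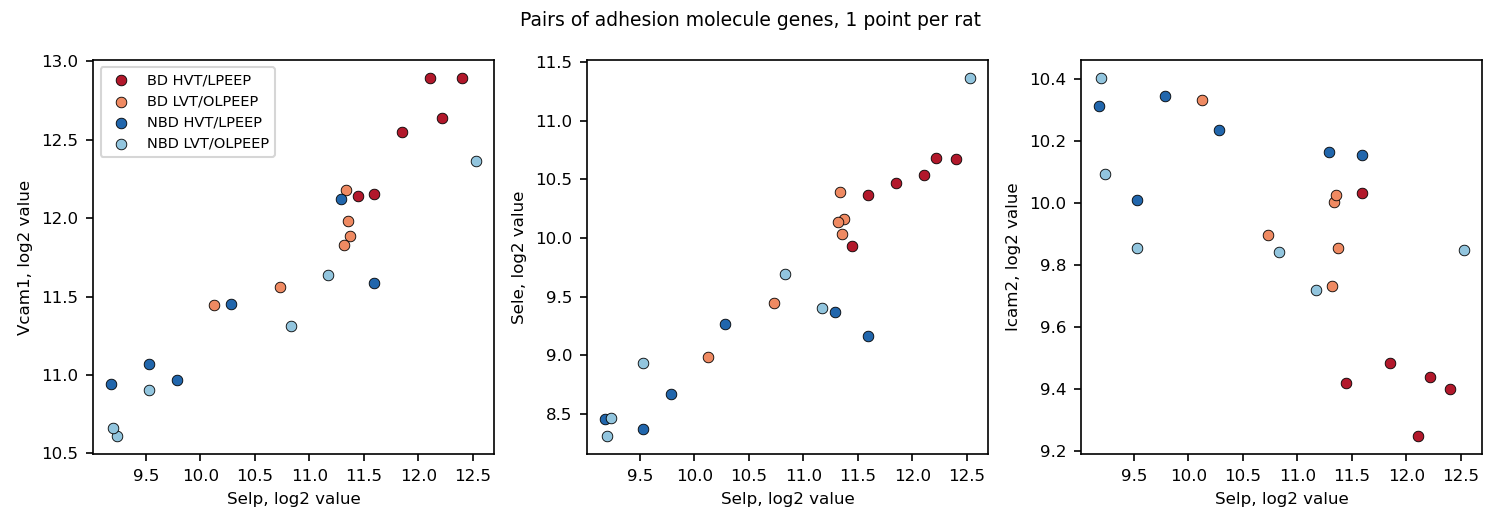
Log2 values of Selp (x axis) against Vcam1, Sele and Icam2 (y axes), 1 point per rat, coloured by group. Selp rises with Vcam1 and with Sele inside every group (r of 0.789 to 0.992 among the 3 genes), and Icam2 tends to be lower where Selp is higher.

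Icam2 and Pecam1 had r below 0 with these genes over the 24 rats. Their r with Selp and Vcam1 lay between -0.595 and -0.478 and passed for all 4 pairs (adjusted permutation p = 0.0293 to 0.0367), as did Icam1 with Pecam1 (r = -0.516, adjusted permutation p = 0.0476). By the Spearman coefficient none of these 5 passed (adjusted permutation p = 0.0608 to 0.114). The relations of Pecam1 rested in part on few rats. Without the 2 farthest rats and without NBD LVT/OLPEEP replicate 5, its r was -0.293 and -0.372 with Vcam1, -0.198 and -0.326 with Icam1, and -0.512 and -0.393 with Selp. In BD LVT/OLPEEP alone, its r with Selp, Vcam1 and Icam1 was 0.027, 0.162 and 0.466. Selplg passed with no other gene (r of -0.036 to 0.395).

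**Figure D4:**
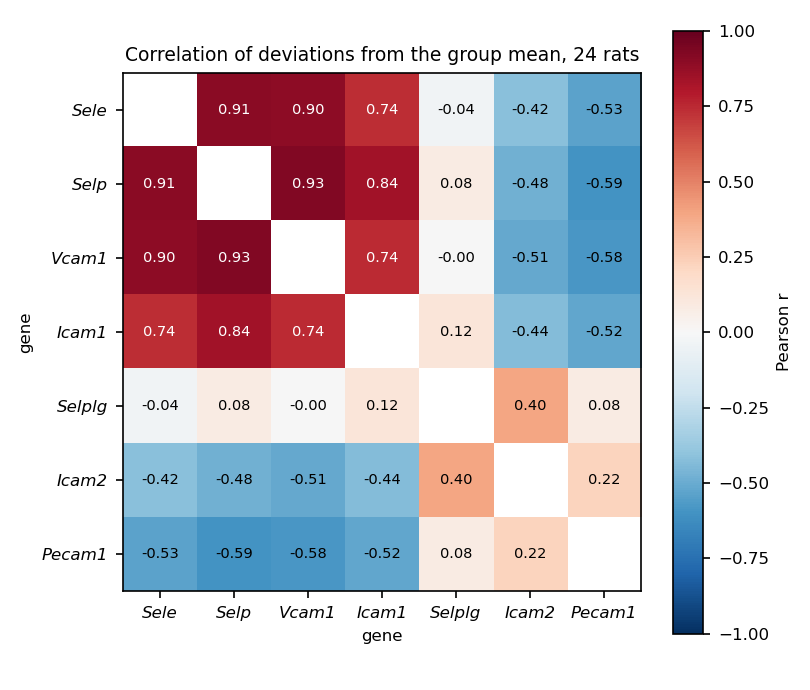
Pearson r (colour and printed value) of the deviations from the group mean for each pair of the 7 genes (both axes) over 24 rats. Sele, Selp, Vcam1 and Icam1 form a block with r of 0.739 to 0.929, set against Icam2 and Pecam1 with r below 0, and Selplg stands alone.

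Among 16585 other named features, those that followed each gene most closely over the 24 rats once group means were removed are given as a description. Animal number was not removed, and its part in these r was not tested. For Icam1 the closest was Nfkb2 (r = 0.94), and for Vcam1 it was Nfkb1 (0.93), the genes of 2 NF-kappaB subunits. Next to Vcam1 came Csf1 (0.90), the growth factor of macrophages, and Tnip1 (0.89), whose product restrains NF-kappaB signalling. Tnip1 was also the closest to Selp (0.95), before Rgs16 (0.92), a regulator of G protein signalling, and Rnd1 (0.92). Sele was followed by Csf1 (0.86), the transcription factor gene Ets2 (0.85) and the chemokine gene Ccl2 (0.84). Icam1 was further followed by Vps37c (0.91) and Mesdc1 (0.89). For Selplg the closest were Csk (0.90) and the leukocyte genes Def6 (0.88) and Cd37 (0.88). Icam2 was closest to Phemx (0.85), Cpne7 (0.83) and Ldb1 (0.79), and Pecam1 to RGD1311122 (0.85), Olfml2a (0.85) and Rassf3 (0.84).

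The genes of both endothelial selectins lie near each other on chromosome 13 (Sele at chr13:78935997-78945905 and Selp at chr13:79009379-79044994 in the rat build GRCr8), and those of both junctional molecules on chromosome 10 (Icam2 at chr10:91808449-91819319 and Pecam1 at chr10:92090263-92152002). Promoter windows were read for the genes that rose or moved together. RefSeq's table of promoters for the same build held windows for Vcam1, Icam1 and Sele, and the 250 bases before the start site were searched on both strands. The bases of Vcam1, which gave the firmest rise, are shown from chr2:206742784-206743033 (minus strand), and those of Icam1, which followed Nfkb2 most closely, from chr8:27829595-27829687 (plus strand), where the annotated gene begins. Capitals mark matches, on either strand, to a loose NF-kappaB motif (GGG, 5 free bases, CC) and to the TATA box TATAAA.
Vcam1: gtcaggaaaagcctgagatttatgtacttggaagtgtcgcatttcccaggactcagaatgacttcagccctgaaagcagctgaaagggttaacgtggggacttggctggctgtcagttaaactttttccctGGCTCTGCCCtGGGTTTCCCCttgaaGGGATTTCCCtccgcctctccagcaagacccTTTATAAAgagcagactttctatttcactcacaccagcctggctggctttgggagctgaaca
Icam1: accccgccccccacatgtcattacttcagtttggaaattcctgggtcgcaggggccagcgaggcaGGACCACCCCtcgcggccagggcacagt
In Vcam1 the matches GGGTTTCCCC and GGGATTTCCC began 108 and 93 bases before the start site and read as the motif on both strands, GGCTCTGCCC began 119 bases before it on the opposite strand, and TATAAA began 60 bases before it. In Icam1 the window's own start site lay 157 bases inside the annotated gene, and GGACCACCCC began 185 bases before that site on the opposite strand. TATAAA began 53 bases before the same site, within the annotated gene and past the printed bases. Of 33469 windows in the table, 42.3% held the loose NF-kappaB motif and 12.9% TATAAA. The AP-1 motif TGANTCA (6.34% of windows) and the GATA motif AGATAA (10.3%) matched in none of the 3 windows, and the GC box GGGCGG (30.5%) matched in that of Icam1. The Sele window lay inside the annotated gene, 517 bases from its start, and is not printed. A match of letters is no binding site, and bases left unmarked may still hold one that departs from these patterns.

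Several genes of the cytokines that induce these molecules were higher in BD HVT/LPEEP as well. The list held 12 genes of inducing cytokines and their receptors, all measured. In BD HVT/LPEEP compared to NBD HVT/LPEEP, 6 were called higher and 1 lower, beside 5.9% and 8.5% of all features. The median difference was 0.34, beside -0.01 over all features. Il1a, the gene of interleukin 1 alpha, averaged 11.38 ± 0.69 in BD HVT/LPEEP and 9.70 ± 0.40 in NBD HVT/LPEEP (SD, n = 6 each), a difference of 1.68 (limma adjusted p = 0.000194). Il1b differed by 1.38 (adjusted p = 0.00621), Tnf by 1.30 (adjusted p = 0.00965) and Ifng by 0.63 (adjusted p = 0.001). Il13 was higher by 0.60 (limma adjusted p = 0.00913). Ifngr1, a receptor gene, went against the list at -0.30 (adjusted p = 0.0147). In BD, 4 of the 12 were called higher under HVT/LPEEP relative to LVT/OLPEEP, beside 2.85% of all features. These were Il1a (1.38, limma adjusted p = 0.00479), Ifng (0.60), Il13 (0.56) and Lta (0.21). Tnf and Il1b differed by 0.73 and 0.50 there and did not pass. Ifng, Il13 and Lta lay low on the arrays in every group. Their highest group means, in BD HVT/LPEEP, were 8.27, 8.84 and 8.21, under the median of 9.18 over all features. Under LVT/OLPEEP none of the 12 was called between BD and NBD.

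Partners on the leukocyte side were measured as well. Of 15 integrin and other leukocyte genes whose products bind these molecules, 14 were measured. In BD HVT/LPEEP compared to NBD HVT/LPEEP, Cd44, a receptor for hyaluronan that also binds E-selectin, was higher by 0.33 (limma adjusted p = 0.00676), Itga9 was lower at -0.23 (adjusted p = 0.0206), and 12 did not pass (median difference 0.11). These 2 of 14 were about the share called over all features there, 14.4%. In BD none of the 14 was called between the ventilation settings. Of 11 enzymes that build selectin ligands, St3gal4, a sialyltransferase, was higher in BD HVT/LPEEP, by 0.54 relative to NBD HVT/LPEEP (adjusted p = 0.00245) and by 0.43 relative to BD LVT/OLPEEP (adjusted p = 0.0273). St3gal3, of the same enzyme family, was lower relative to NBD HVT/LPEEP (-0.48, limma adjusted p = 0.00107), and the other 9 did not pass there. Over all features, 5.9% were called higher and 8.5% lower relative to NBD HVT/LPEEP, and 2.85% higher relative to BD LVT/OLPEEP.

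Of 21 other adhesion and junction molecules listed, 19 were measured. In BD, HVT/LPEEP gave higher values than LVT/OLPEEP for Pvr, a nectin-like receptor, by 0.95 (limma adjusted p = 0.00812) and for Cx3cl1, the membrane-bound chemokine fractalkine, by 0.84 (adjusted p = 0.0444), and lower values for F11r, the gene of junctional adhesion molecule A (-0.31, adjusted p = 0.0172). The median over the 19 was -0.08, beside -0.01 over all features, and the 3 of 19 called compare with 5.67% of all features. Under HVT/LPEEP, BD was higher than NBD in Cx3cl1 (0.73, adjusted p = 0.0477) and lower in F11r (-0.36, adjusted p = 0.00275), and the other 17 did not pass. These 2 of 19 were no larger a share than the 14.4% of all features called there. Of 20 linkers and sheddases, 19 were measured. In BD HVT/LPEEP compared to NBD HVT/LPEEP, 3 of the 19 were called, all higher. Over all features 5.9% were called higher there and 14.4% in either direction, so this list is near the latter share. Adam17, whose product sheds surface proteins including L-selectin, was higher by 0.61 in BD HVT/LPEEP relative to NBD HVT/LPEEP (adjusted p = 0.00195). Ezr and Msn, whose products ezrin and moesin tie ICAM-1 and VCAM-1 to the cytoskeleton, were higher by 0.35 and 0.20 (adjusted p = 0.0131 and 0.044). Ezr was also called under LVT/OLPEEP, by 0.49 in BD compared to NBD (adjusted p = 0.0123). In BD, Actn1 (0.48) was higher and Arhgef26 (-0.73) lower under HVT/LPEEP relative to LVT/OLPEEP. That is 1 of 19 each way, beside 2.85% of all features called higher and 2.82% lower.

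**Figure D5:**
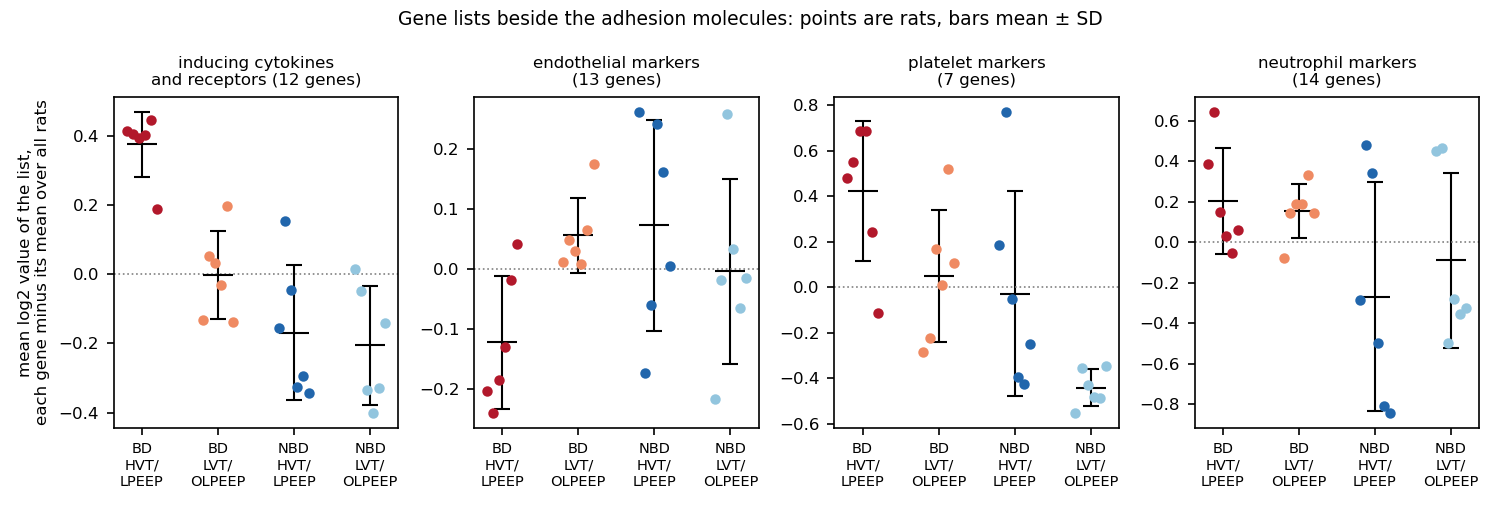
Mean log2 value of 4 gene lists, after the mean of each gene over the 24 rats was subtracted (y axis), in the 4 groups (x axis). Points are rats and bars mean ± SD (n = 6). Inducing cytokines are highest in BD HVT/LPEEP, endothelial markers are lowest there on average, and platelet markers differ most between BD HVT/LPEEP and NBD LVT/OLPEEP.

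Markers of endothelium are given beside Icam2, since resting endothelium carries it. Of 16 listed, 13 were measured. In BD HVT/LPEEP compared to NBD HVT/LPEEP, 3 were called lower and none higher, beside 8.5% and 5.9% of all features. These were Ramp2 (-0.81, limma adjusted p = 0.0046), Vwf (-0.48, adjusted p = 0.0174) and Sox17 (-0.54, adjusted p = 0.0477). The median over the 13 was -0.15. In BD, 1 of the 13 was called lower under HVT/LPEEP relative to LVT/OLPEEP, beside 2.82% of all features. It was Ramp2 (-0.64, limma adjusted p = 0.04), and the median over the list was -0.23. Relative to NBD LVT/OLPEEP, Icam2 was lower in BD HVT/LPEEP too. There, 2 of the 13 were called lower, Sox17 (-0.64) and Ramp2 (-0.58), and 2 higher, Egfl7 (0.41) and Nos3 (0.24). Over all features 10% were called lower and 9.03% higher. Egfl7 was also higher by 0.64 in BD relative to NBD under LVT/OLPEEP (adjusted p = 0.0153). Cdh5 did not pass in either comparison (-0.08 and -0.16). The mean of the list lay between -0.24 and 0.04 in BD HVT/LPEEP rats, between 0.01 and 0.17 in BD LVT/OLPEEP rats and between -0.17 and 0.26 in NBD HVT/LPEEP rats. Its part in the Icam2 result was not tested.

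Platelet markers are given because platelets carry P-selectin. Of 10 listed, 7 were measured. Between BD HVT/LPEEP and NBD HVT/LPEEP, 1 of 7 was called higher, Pf4, by 0.41 (limma adjusted p = 0.0253), beside 5.9% of all features. In BD between the ventilation settings it was Pf4 again, by 0.43 (limma adjusted p = 0.039), beside 2.85% of all features. Between BD HVT/LPEEP and NBD LVT/OLPEEP all 7 were called higher, beside 9.03% of all features, with a median of 0.74. The mean of the list ranged from -0.11 to 0.69 in BD HVT/LPEEP, from -0.28 to 0.52 in BD LVT/OLPEEP, from -0.42 to 0.77 in NBD HVT/LPEEP and from -0.55 to -0.35 in NBD LVT/OLPEEP. NBD LVT/OLPEEP replicate 5, with the highest Selp of all rats, had the lowest platelet mean of its group (-0.55). In the same rat, the mean of the inducing cytokines and receptors was the highest of its group (0.02), and that of endothelial markers the lowest (-0.22). Its neutrophil mean was 0.45, beside 0.47 in replicate 6 and -0.50 to -0.28 in the rest of the group. The part of platelets or of these other lists in the Selp result was not tested in any rat.

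Markers of leukocytes are given beside Selplg, Icam2 and Pecam1. Of 14 neutrophil markers, 3 were higher in BD HVT/LPEEP compared to NBD HVT/LPEEP (S100a9, Ncf1 and S100a8, by 0.76, 0.58 and 0.97), and all 14 had a difference above 0. In BD none of the 14 passed between the ventilation settings. Of 13 lymphocyte markers, 2 were higher in the same comparison, Cd8a (0.63) and Ms4a1 (0.79), and of 8 measured markers of monocytes and macrophages 2 were lower, Mrc1 (-0.55) and Csf1r (-0.37). Alveolar epithelial markers, 10 in all, were lower for 5 genes in the same comparison, among them Rtkn2 (-0.98) and Abca3 (-0.55). Of 9 measured markers of smooth muscle and fibroblasts, 1 was lower, Pdgfra (-0.59). Over all features in this comparison, 5.9% were called higher and 8.5% lower. The counts of 1 or 2 genes in a list are not read as a shift of cells. The part of these cells in the values of the 7 genes was not tested.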

How the data were processed

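Lung RNA of 24 rats was hybridised to Affymetrix rat arrays. The authors deposited log2 expression values, which were used as they stand. Background correction and probe summary: not given in the sources used here. When sorted, the values of the 24 arrays were the same, as quantile normalization leaves them. Groups and animal numbers came from the labels. Features were named from the platform annotation, in which 16592 of 19239 features had 1 symbol and 2647 had none. The 7 symbols also matched the current gene table. No signal over background is known.

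R 4.3.3 and limma 3.58.1 (lmFit, eBayes) fitted the 4 group means to all features, with 20 residual degrees of freedom. Tests were two-sided, with Benjamini-Hochberg adjustment over all 19239 features of a contrast. The methods name a mixed-model ANOVA with Holm correction, whose terms are not given, and Holm was an alternative. Limma and the correlation step were tested on simulated data. The members, the lists and all alternatives were chosen with earlier results of these data known. Of 169 listed genes, 156 were measured. Named genes are the 7 members, the 3 features closest to each, and up to 4 called genes with the smallest p of each list, with those that moved against it. Some other list genes, such as Tnf and Cdh5, are given besides. Sele and Vcam1 belonged to the study's qPCR panel, which was chosen from these arrays. For both, the paper reports no significant qPCR difference between the BD groups, in surviving rats only.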

Additional observations from a re-analysis of the deposited data

Results flagged for a closer look

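Rats that stood apart from the other 5 of their group by Dixon's test at the 95% level were sought for the 7 genes and 13 gene lists in the 4 groups, 80 sets of 6 values in all. Chance alone flags about 1 in 20 sets. Of the 7 genes, 1 was found. Icam2 in BD HVT/LPEEP replicate 37 was 10.03, with the other 5 rats between 9.25 and 9.48. In the same rat, the mean of the inducing cytokines and receptors was the lowest of its group (0.19, with the next at 0.40) and the mean of the skeletal muscle markers the highest (0.15, with the next at -0.06). BD LVT/OLPEEP replicate 16 had a skeletal muscle mean of 3.28, with the next at -0.08. BD LVT/OLPEEP replicate 20, the rat with the lowest Sele and Selp of that group, had the highest mean of endothelial markers (0.17, with the next at 0.06). NBD HVT/LPEEP replicate 12 had the lowest mean of linkers and sheddases (-0.26, with the next at 0.00).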

How the results depend on the processing

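Of the 7 genes, 1 was called between the ventilation settings in BD. This number was 2 in the fit of only the groups compared, 5 with animal number as a covariate, and 0 with the Holm correction, at 1.5-fold or when some pairs of BD HVT/LPEEP rats were left out, as each of the 15 pairs was because any could be the 2 non-survivors. For BD against NBD under HVT/LPEEP the number was 4, and 0 with Holm. For both insults against neither it was 5, and 0 with Holm, 3 at 1.5-fold and 1 at the lowest without a pair of BD HVT/LPEEP rats. For the difference of the ventilation effects it was 0, and 1 (Icam2) with animal number as a covariate (adjusted p = 0.04) and at the highest without such a pair. Without single rats these numbers were 0 to 2, 3 to 5, 3 to 5 and 0 to 1. The other 3 comparisons gave 0 under every alternative. The cause of these shifts was not tested, and in BD the animal numbers of the 2 ventilation settings barely overlap. Icam1 under HVT/LPEEP, uncalled as reported, passed with cyclic loess, without the dimmest 40% of features, with array weights and with animal number as a covariate (adjusted p = 0.00499 to 0.0464). With BD LVT/OLPEEP replicate 16 and NBD HVT/LPEEP replicate 12 both left out it passed too (adjusted p = 0.00973). Centring the arrays on their median changed no value, since the medians are equal. Over all alternatives, no called difference changed sign. Of 1813 values, 43 of uncalled differences did, and all of these lay within 0.28 of 0. No paired analysis was possible because the groups share no animal number. The number of rats and the spread of the selectins among NBD rats limit what could be detected, and signal over background is not known.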
